A study of Homo sapiens with 183 samples.

Results

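Expression of 9 genes of tissue factor coagulation and of the plasminogen system was followed across all 183 RNA-seq libraries of a series on human pancreatic ductal adenocarcinoma (PDAC) cell lines. The members were picked by name among the 19875 genes of each table: tissue factor (F3), its inhibitors TFPI and TFPI2, the thrombin and protein C receptors THBD and PROCR, the plasminogen activators PLAT and PLAU, the urokinase receptor PLAUR, and the protease inhibitor SERPINE2. The level of each gene is given in TPM, the share of its transcripts among all transcripts of a library after correction for transcript length, so that levels of different genes within a library can be compared. A change is the difference of mean log2(TPM + 1) between 2 groups, called the log2 change below, and it understates the change of low genes. A gene was tested where its mean over the libraries fitted together reached 1 TPM, and it was called where its limma p-value, adjusted by Benjamini-Hochberg over all genes tested, was under 0.05.

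The genes lie, in GENCODE v44 on GRCh38, at chromosome 1 from 94529173 to 94541759 (F3), chromosome 2 from 187464230 to 187565760 (TFPI) and from 223975045 to 224039318 (SERPINE2), chromosome 7 from 93885396 to 93890753 (TFPI2), chromosome 8 from 42174718 to 42207709 (PLAT), chromosome 10 from 73909177 to 73917496 (PLAU), chromosome 19 from 43646095 to 43670547 (PLAUR), and chromosome 20 from 23045633 to 23049672 (THBD) and from 35172072 to 35216240 (PROCR). PLAU and PROCR are on the plus strand and the others on the minus strand.

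Tissue factor is a membrane receptor that binds factor VII and starts the extrinsic clotting cascade, and many carcinomas, pancreatic cancers among them, display it on their cells. TFPI and TFPI2 are Kunitz-type protease inhibitors, of which TFPI blocks the tissue factor complex, while thrombomodulin (THBD) and the endothelial protein C receptor (PROCR) turn thrombin from a clotting enzyme into an activator of the anticoagulant protein C. Tissue-type activator (PLAT) and urokinase (PLAU) convert plasminogen into plasmin, which dissolves fibrin and degrades matrix, PLAUR holds urokinase on the cell surface, and SERPINE2 inhibits thrombin, urokinase and plasmin.

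The PDAC lines were AsPC-1 and SUIT-2, which the study treats as classical, T3M-4 and BxPC-3, which it treats as basal-like, and CFPAC-1. Cells that stably carried Cas9 received a control guide (sgRosa) or guides against KLF5, a zinc finger transcription factor, RUVBL1 or RUVBL2, the AAA+ ATPases of a hexameric chaperone and remodelling complex, CDK1 or RPA3, which dividing cells need, or, in AsPC-1 alone, SERPINB5 or the chromatin remodeller CHD4, and RNA was taken at day 5. For KLF5, RUVBL1, RUVBL2, SERPINB5 and the control the study used more than 1 guide, and for CHD4 it lists more than 1. The labels do not tell the libraries of these guides apart, so that those groups pool guides or, for CHD4, may do so. For CDK1 and RPA3 the study lists a single guide each. The groups of 1 line and experiment held 2 to 6 libraries. For the inhibitor CB-6644, which blocks the ATPase activity of RUVBL1 and RUVBL2, AsPC-1 and T3M-4 cells carried an empty vector (Lv-Empty) or cDNA of the resistant variants RUVBL1_A62T or RUVBL2_dF109, with 3 CB-6644 libraries and 1 DMSO library per construct. T84 colorectal, A375 melanoma, H1048 small cell lung cancer and RH30 rhabdomyosarcoma cells had 4 DMSO and 4 CB-6644 libraries each, all at 24 h. The study calls its knockout libraries biological replicates, but no label ties a replicate to a culture of its own, so p-values measure the spread between these libraries, which may be technical.

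The GC-rich word CCNCNCCC, or GGGNGNGG on the other strand, covers the core of the sites that Krüppel-like factors bind, so it was counted in the 300 bases around the RefSeq transcription start (250 before, 50 after; build GRCh38.p14). At least 1 match stood in 19727 of 35116 promoters (56.2%), so that its presence is common. Windows were found for 7 of the 9 members, and those of the tissue factor, TFPI and PROCR genes are shown because the results on KLF5 knockout below turn on these coagulation members. They are written 5′ to 3′ on the gene's strand, with matches to the word in capitals. The F3 window (chr1:94541710-94542009, minus strand) held 6 matches, 2 of which overlap, the PROCR window (chr20:35171822-35172121, plus strand) 3, and the TFPI window (chr2:187554386-187554685, minus strand, at a start inside the annotated gene) 0. A match is a run of letters and not a measured binding site.
F3: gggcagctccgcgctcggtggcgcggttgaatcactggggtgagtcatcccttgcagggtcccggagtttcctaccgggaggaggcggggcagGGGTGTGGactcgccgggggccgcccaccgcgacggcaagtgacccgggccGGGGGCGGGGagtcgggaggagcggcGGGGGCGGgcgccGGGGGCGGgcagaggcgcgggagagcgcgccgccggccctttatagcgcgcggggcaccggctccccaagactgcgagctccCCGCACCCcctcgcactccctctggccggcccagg
PROCR: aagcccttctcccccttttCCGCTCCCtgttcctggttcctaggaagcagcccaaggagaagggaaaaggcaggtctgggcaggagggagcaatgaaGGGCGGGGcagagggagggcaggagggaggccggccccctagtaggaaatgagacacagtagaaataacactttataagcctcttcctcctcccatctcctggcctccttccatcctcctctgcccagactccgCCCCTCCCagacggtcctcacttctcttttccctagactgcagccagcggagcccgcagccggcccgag
TFPI: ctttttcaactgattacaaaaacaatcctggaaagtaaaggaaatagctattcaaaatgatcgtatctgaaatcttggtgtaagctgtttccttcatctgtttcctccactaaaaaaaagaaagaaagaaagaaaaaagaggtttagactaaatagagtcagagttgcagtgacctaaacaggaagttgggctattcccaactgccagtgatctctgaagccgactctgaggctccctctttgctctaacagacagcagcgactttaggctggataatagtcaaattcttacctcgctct

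Depth cannot be read from TPM, and each library held 11292 to 14024 genes at 1 TPM or more. RUVBL1 transcript was lower in each sgRUVBL1 group (log2 change −1.87 to −1.14) and RUVBL2 in each sgRUVBL2 group (−1.76 to −1.24). KLF5 transcript, from −0.41 to 0.78 in the sgKLF5 groups, was called lower only in CFPAC-1 (−0.41). It was called higher in AsPC-1 experiment 1 (0.53) and T3M-4 experiment 2 (0.78). CHD4 was slightly higher in sgCHD4 libraries (0.28), so TPM do not check the KLF5 and CHD4 labels. CDK1 transcript was called lower in 2 of 4 sgCDK1 groups (−1.47 in T3M-4 and −0.61 in BxPC-3) and not in AsPC-1 (−0.19) or CFPAC-1 (−0.10, overlapping). RPA3 was below all controls in 6 of 6 sgRpa3 groups (−1.4 to −0.26) and called in 2. Of 177 libraries with others in their group, 18 correlated better with another group. The clearest was sgRosa replicate 2 of CFPAC-1, which was nearer to the sgKLF5 libraries (r = 0.9910) than to its own group (0.9833). In that line sgRosa replicate 3 was also nearer to sgCDK1 (0.9940, own group 0.9930) and replicate 4 to sgRUVBL2 (0.9902, own group 0.9886). F3, THBD and PLAT after KLF5 knockout in CFPAC-1 are given with and without replicate 2. Other CFPAC-1 values against sgRosa include it. SUIT-2 sgRosa replicate 1, SUIT-2 sgKLF5 replicate 4, T3M-4 sgKLF5 replicate 2 of experiment 1 and the T3M-4 empty-vector DMSO library also stood apart in members described below. All 5 epithelial markers reached 1 TPM in every PDAC line and in T84. Over control libraries, SOX10 stood at 231 to 238 TPM in A375, with PMEL near 1, and the muscle markers of RH30 summed to 1387 to 1506 TPM. In H1048 POU2F3 stood at 452 to 501 TPM, ASCL2 at 6.71 to 9.29 and TRPM5 at 0 to 0.182. T84 held CDX2 at 84.8 to 97.8 TPM, and more ASCL2 than H1048 (33.2 to 39.2). The colorectal markers LGALS4 (346 to 705 TPM) and VIL1 (56.9 to 356) were high in AsPC-1 too. Among leukocyte markers, CD68 stood at 105 to 205 TPM in AsPC-1 and PTPRC at 5.3 to 18.3 in T3M-4. Because several members are known from endothelial cells, 4 endothelial markers were followed as well. They summed to under 6 TPM in AsPC-1, while in BxPC-3 CDH5 stood at 3.8 to 6.93 TPM in sgRosa libraries and RH30 carried PECAM1 at 32.5 to 43.2 TPM.

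Among control libraries, tissue factor transcript was highest in BxPC-3 and lowest in A375, RH30 and H1048. In AsPC-1 and T3M-4 the controls include DMSO libraries of cells with RUVBL1_A62T or RUVBL2_dF109. Over the sgRosa and DMSO libraries F3 had a median of 2771 TPM in BxPC-3 (1781 to 3060, n = 6), 572 in T3M-4 (165 to 882, n = 9), 506 in CFPAC-1 (373 to 574, n = 4) and 96.3 in AsPC-1 (65.5 to 164, n = 17). It had medians of 39 TPM in T84, 17.9 in SUIT-2, 11.3 in H1048, 9.5 in RH30 and 8.21 in A375. The ranges of T3M-4 and CFPAC-1 overlapped, as did those of SUIT-2 and H1048, and all other neighbours in this order were separate. Within AsPC-1 the level depended on the experiment, from a mean of 73.4 TPM in sgRosa cells of experiment 3 to 157 in those of experiment 1, so each contrast was made within its own experiment.

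The 2 tissue factor pathway inhibitors were laid out differently from F3. TFPI was highest in CFPAC-1 (median 173 TPM), followed by AsPC-1 (86), SUIT-2 (69.8), BxPC-3 (46.2), T3M-4 (24.4) and RH30 (17.9), and stood under 5 TPM in A375, T84 and H1048. TFPI2 was present in only 3 lines, at 293 TPM in CFPAC-1, 51.6 in BxPC-3 and 17.5 in A375, and had a median of at most 0.084 TPM in the other 6. Thus BxPC-3 carried the most F3 transcript beside a middling TFPI level. In AsPC-1 the order of F3 and TFPI depended on the experiment. Mean F3 stood above TFPI in sgRosa cells of experiments 1 (157 against 73.5 TPM) and 2 (137 against 77.8), and below it in experiment 3 (73.4 against 103). The 2 were closer in the CHD4 experiment (97.6 against 86.5) and in DMSO libraries (83.1 against 82.2). THBD was likewise highest in BxPC-3 (201 TPM), overlapped among T3M-4 (68.9), AsPC-1 (60.4) and CFPAC-1 (29.5), reached 3.31 TPM in SUIT-2 and had medians under 0.2 TPM, or was listed at 0, in all 4 non-pancreatic lines. PROCR was highest in AsPC-1 (264 TPM) and near absent only in H1048 (0.179).

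The 2 plasminogen activators were both high in CFPAC-1 and otherwise highest in different lines, PLAU in SUIT-2 and PLAT in AsPC-1. PLAU reached 2128 TPM in SUIT-2 and 1347 in CFPAC-1, whose ranges overlapped, stood at 320 in BxPC-3, 141 in RH30, 94 in AsPC-1, 51.9 in T84 and 29.5 in H1048, and was low in T3M-4 (10.5) and A375 (0.517). PLAT had 337 TPM in CFPAC-1 and 280 in AsPC-1, 56.4 to 84.6 in RH30, BxPC-3, A375 and T3M-4, 35 in SUIT-2, and under 1 in T84 and H1048. Its control level depended on the experiment. Means ran from 154 to 638 TPM in AsPC-1, 52.3 to 181 in T3M-4 and 26.5 to 78.5 in BxPC-3, and CFPAC-1 libraries from 64.1 to 347. The urokinase receptor PLAUR was present in every line, from 13.5 TPM in H1048 to 229 in BxPC-3, and its ranges overlapped between all neighbours from BxPC-3 down to SUIT-2 (40.5). SERPINE2 was by far highest in A375 (2907 TPM) and AsPC-1 (1335), and lowest in RH30 (5.62). These levels across lines are a description and were not tested.

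**Figure D1:**
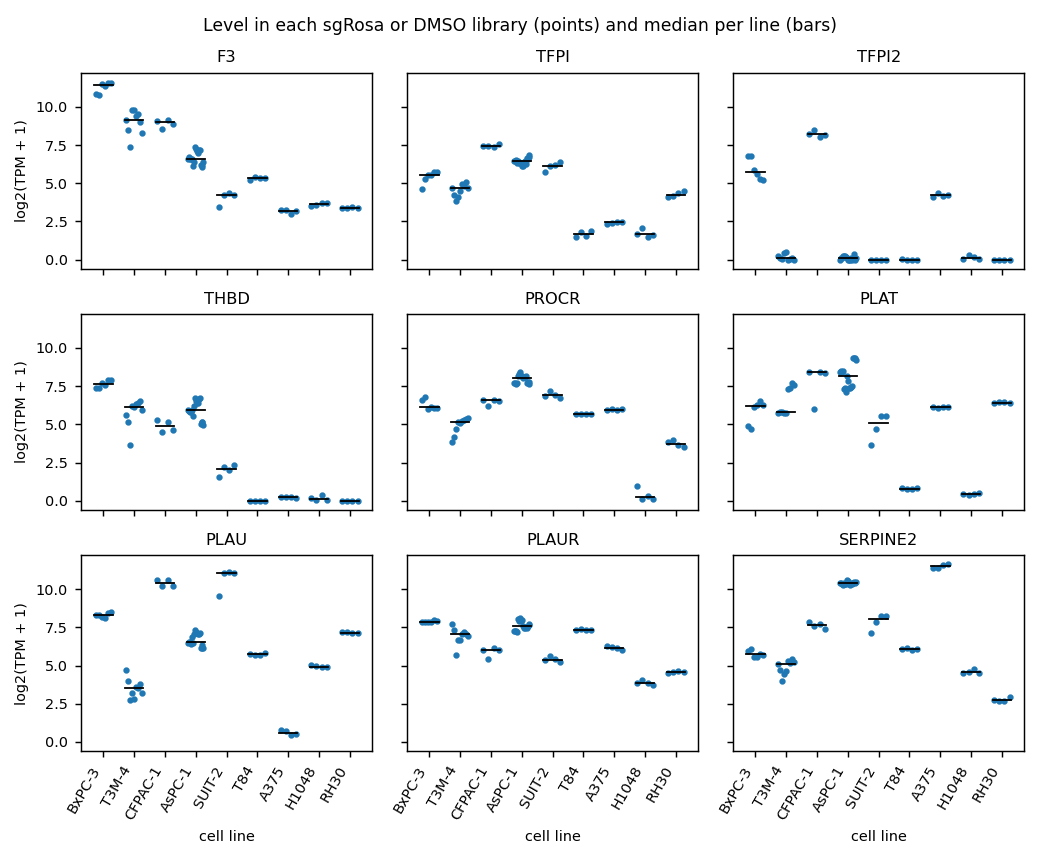
Baseline levels of the 9 members in the 9 lines, drawn as log2(TPM + 1). Each point is 1 sgRosa or DMSO library and each bar the median of a line. F3 spans from 8.21 TPM (median) in A375 to 2771 in BxPC-3, TFPI2 is present in 3 lines, and PLAU ranges in the PDAC lines from 10.5 TPM in T3M-4 to 2128 in SUIT-2.

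The genes with the most similar profile over the 9 lines, among 15790 genes that reached 1 TPM in a line, are given by Pearson correlation of mean control log2(TPM + 1), as a description over 9 points. They were CMIP (r = 0.981), NCK1 (0.958) and ZBED2 (0.955) for F3, and KCP (0.985), ACOT4 (0.965) and PLLP (0.959) for THBD. COL8A1 (0.993), PML (0.937) and GALNT10 (0.906) came closest to TFPI2, and AHNAK2 (0.964), LDLRAD2 (0.953) and PLD4 (0.944) to TFPI. CAPG (0.954), TOR4A (0.949) and NT5E (0.947) tracked PROCR, and C2orf74 (0.955), GNG11 (0.943) and NR3C1 (0.941) tracked PLAT. For PLAUR they were PARVB (0.953), MICALL2 (0.941) and LANCL3 (0.937), and for SERPINE2 SYTL5 (0.955), FBXO43 (0.914) and THEM4 (0.905). For PLAU they were TRAK1 (0.945), C10orf55 (0.941) and LRP5 (0.929). C10orf55 overlaps PLAU on the opposite strand, and since the library kit does not mark strand, reads of the overlap cannot be told apart.

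KLF5 knockout was measured in 8 comparisons with sgRosa, and moved coagulation members in all lines but SUIT-2. Tissue factor was called higher in AsPC-1 and lower in T3M-4, BxPC-3 and CFPAC-1, TFPI was higher in each of the 5 comparisons in which it was called, and THBD was lower in each of the 6 in which it was called. Of 72 member and comparison pairs 68 were tested, and 45 were called, 21 higher and 24 lower. In AsPC-1, 6 of 9 tested members were called in experiment 1, where 25.9% of all genes tested were called, and 7 of 8 in experiment 3 (27.8% of all genes). In CFPAC-1 it was 5 of 9 (16.2% of all genes), in T3M-4 2 of 8 in experiment 1 (5.72%) and 8 of 8 in experiment 2 (34.6%), and in BxPC-3 9 of 9 in experiment 1 (16.2%) and 8 of 9 in experiment 2 (34.6%). In SUIT-2 limma called 0 of 8 (3.94% of all genes), with 3 members at an unadjusted p under 0.05. The median log2 change of the members ranged from −0.56 to 0.37 over the 8 comparisons, beside −0.22 to 0.18 for all genes tested. Scaling each library by the median of ratios, which sets the median of all genes near 0, gave 55 calls, 23 higher and 32 lower, among them 4 in SUIT-2 and 7 in T3M-4 experiment 1. Here and for the members below, shares of all genes belong to the calls first given, not to counts under scaling or another setting.

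**Figure D2:**
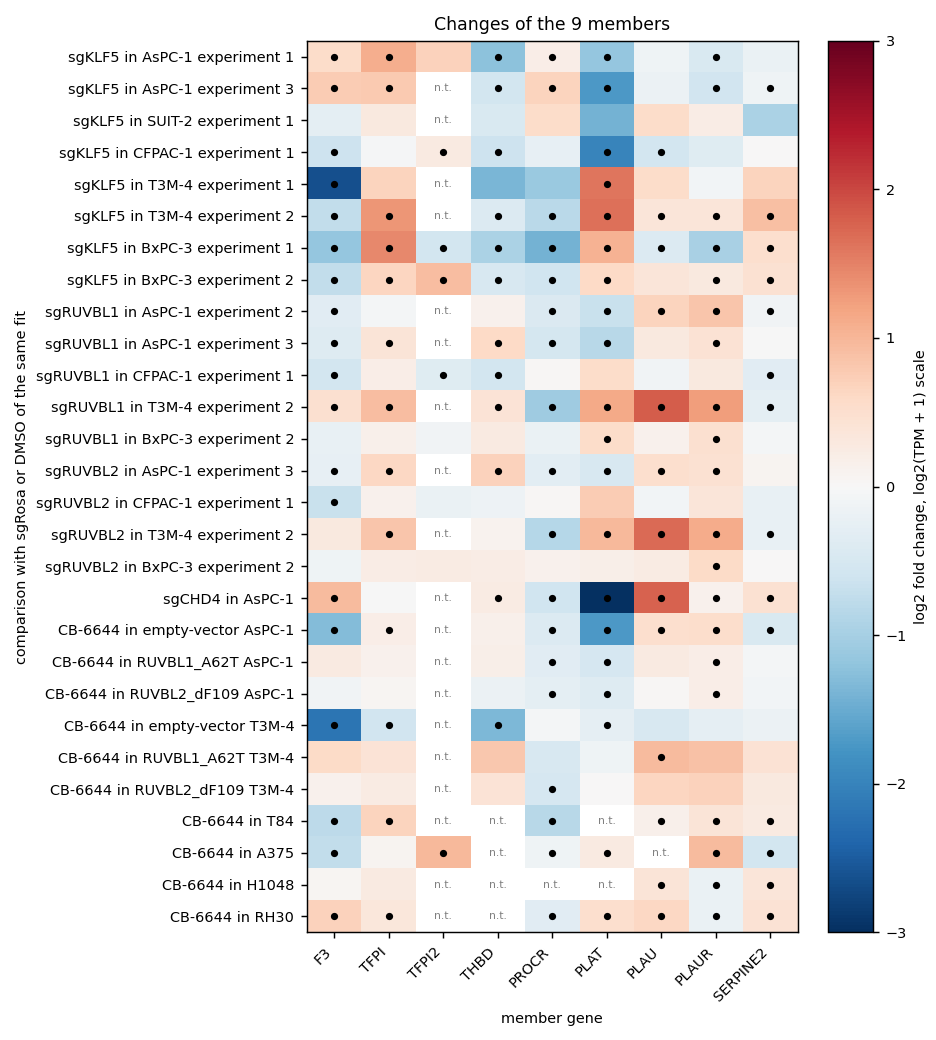
Log2 change of each member (columns) in each comparison with its own controls (rows), coloured from lower to higher, with called changes marked. The comparisons are those of KLF5, RUVBL1, RUVBL2 and CHD4 knockout and of CB-6644. TFPI and THBD keep 1 colour across the called KLF5 comparisons, while F3 and PLAT change colour between AsPC-1 and T3M-4.

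In AsPC-1, F3 rose after KLF5 knockout in both experiments. In experiment 1 the 2 sgRosa libraries held 151 and 164 TPM of F3, and the 6 sgKLF5 libraries 204 to 242 with a median of 232. Every knockout library lay above both controls, a log2 change of 0.54 (SE 0.07, adjusted p = 0.000359). In experiment 3 sgRosa libraries had 72, 65.5, 73.8 and 82.4 TPM of F3 and sgKLF5 libraries 116, 143, 142 and 107, again without overlap (0.77, SE 0.09, adjusted p = 2.99e-06).

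In T3M-4, BxPC-3 and CFPAC-1 the direction of F3 was the reverse. BxPC-3 sgRosa libraries of experiment 1 stood at 1825 and 1781 TPM of F3, against 950, 853, 697 and 767 after KLF5 knockout. In experiment 2 they stood at 2869, 2674, 3001 and 3060 TPM, against 1518, 1628, 2034 and 1802. The groups were apart in both, with log2 changes of −1.15 (SE 0.11, adjusted p = 5.75e-05) and −0.74 (SE 0.12, adjusted p = 0.000159), and tissue factor stayed above 600 TPM in every knockout library.

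T3M-4 lost more F3 in experiment 1 than in experiment 2. In experiment 1 the sgRosa libraries had 871 and 882 TPM of F3 and the sgKLF5 libraries 162, 56.4, 196 and 217 (log2 change −2.63, SE 0.49, adjusted p = 0.0231). That call was lost without either sgRosa library (adjusted p = 0.201 and 0.227) or without sgKLF5 replicate 1 (0.0667), although the value stayed between −2.70 and −2.62 in these 3 settings. In experiment 2 the sgRosa libraries had 679, 725, 524 and 318 TPM and the sgKLF5 libraries 293, 340, 340 and 316, which overlapped because of the lowest control (−0.73, SE 0.17, adjusted p = 0.00282).

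CFPAC-1 went the way of the basal-like lines for F3. Its sgRosa libraries had 540, 373, 574 and 471 TPM and its sgKLF5 libraries 319, 286 and 331, which did not overlap (log2 change −0.63, SE 0.11, adjusted p = 0.00396, and −0.76 without sgRosa replicate 2). In SUIT-2, the other classical line, F3 was low in all libraries, with 9.92, 17.7, 19.7 and 18.1 TPM in sgRosa and 15.1, 10.5, 14.5 and 11.4 in sgKLF5 cells. The log2 change of −0.30 there was not called (adjusted p = 0.593), but was called at −0.53 under median-of-ratios scaling (adjusted p = 0.0415), lower and not higher as in AsPC-1. Whether the change differs between lines was not tested in 1 fit.

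TFPI, the inhibitor that opposes tissue factor, rose wherever it was called. AsPC-1 sgRosa libraries of experiment 1 had 78.1 and 68.8 TPM of TFPI and the 6 sgKLF5 libraries 132 to 175 with a median of 158 (log2 change 1.09, adjusted p = 3.06e-05). In experiment 3 TFPI was at 97.6, 97.2, 113 and 105 TPM in control and 181, 175, 178 and 177 in knockout libraries (0.78, adjusted p = 3.82e-06). Knockout and control libraries were apart in both experiments.

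The basal-like lines gave TFPI changes of the same sign. T3M-4 of experiment 2 had 29.3, 27, 32.5 and 24.4 TPM of TFPI in sgRosa and 75.5, 70.4, 68.6 and 75.3 in sgKLF5 libraries (log2 change 1.33, adjusted p = 2.77e-09). BxPC-3 of experiment 1 had 23.2 and 37.5 TPM against 101, 87.6, 74.4 and 68.7 (1.44, adjusted p = 0.000823). BxPC-3 of experiment 2 had 46.4, 46, 51.4 and 51.9 TPM against 73.4, 81.8, 82.5 and 71.7 (0.65, adjusted p = 5.96e-05). Every knockout library lay above every control in these 3 comparisons, and also in T3M-4 experiment 1, where 16.3 and 21.3 TPM stood against 30.1, 22.2, 37.2 and 33.3 without a call (0.67, adjusted p = 0.169). In CFPAC-1 TFPI showed a log2 change of −0.03, and in SUIT-2 the 4 knockout libraries spread from 31.3 to 130 TPM around controls of 53.1 to 84.7, with replicate 4 the low one.

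TFPI2 could be tested in 4 of the 8 comparisons. BxPC-3 went down in experiment 1, from 110 and 111 TPM of TFPI2 to 79.3, 82.9, 71.1 and 68 (log2 change −0.56, adjusted p = 0.00262). It went up in experiment 2, from 56.2, 47, 38.5 and 35.9 TPM to 84, 86.7, 82.8 and 83.4 (0.93, adjusted p = 1.21e-05). The knockout libraries stood at 68 to 82.9 TPM in experiment 1 and 82.8 to 86.7 in experiment 2. The control libraries stood at 110 to 111 and 35.9 to 56.2 TPM, and levels were not tested between experiments. In CFPAC-1 TFPI2 was called slightly higher (0.27, adjusted p = 0.0285), a call lost without each sgKLF5 library and without sgRosa replicates 1 and 3 (0.21 to 0.30). In AsPC-1 experiment 1 sgKLF5 replicate 6 alone held 10.5 TPM of TFPI2 where the other 5 knockout libraries had at most 0.332.

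THBD, the thrombin receptor that starts the protein C pathway, fell in 6 of 8 comparisons and was not called higher in any. AsPC-1 of experiment 1 had 105 and 90.3 TPM of THBD in sgRosa libraries, and 34.6 to 46.5 with a median of 41.2 in the 6 sgKLF5 libraries (log2 change −1.23, adjusted p = 3.81e-05). In experiment 3 it had 31.8, 35.2, 34.9 and 30.1 TPM against 17.7, 24, 24.4 and 22.6 (−0.56, adjusted p = 0.00377). In BxPC-3, 167 and 162 TPM became 92.1, 96.9, 71.5 and 79.8 in experiment 1 (−0.95, adjusted p = 0.000355). Groups did not overlap in these comparisons. In BxPC-3 experiment 2, 212, 190, 235 and 241 TPM became 144, 153, 173 and 160 (−0.48, adjusted p = 0.00141). T3M-4 of experiment 2 had 81.2, 84.4, 90.2 and 59.6 TPM of THBD against 57.1, 57.2, 59.4 and 58.4, with the lowest control just above the highest knockout library (−0.42, adjusted p = 0.00381). CFPAC-1 was called lower (−0.61, adjusted p = 0.0182), but not without sgKLF5 replicates 1 or 3 or sgRosa replicates 1 or 3 in turn (−0.60 to −0.47), and −0.75 without sgRosa replicate 2. Of the 2 comparisons without a call, values were −1.36 (T3M-4 experiment 1, adjusted p = 0.154) and −0.45 (SUIT-2, adjusted p = 0.347).

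PROCR, which presents protein C to thrombomodulin, was called higher in AsPC-1 and lower in T3M-4 experiment 2 and BxPC-3. In AsPC-1 experiment 3 sgRosa libraries had 210, 214, 213 and 196 TPM of PROCR and sgKLF5 libraries 350, 340, 325 and 310 (log2 change 0.66, adjusted p = 3.67e-08). The rise in experiment 1 was smaller (0.19, adjusted p = 0.0264) and lost its call under median-of-ratios scaling (0.09) and without either sgRosa library. In BxPC-3 PROCR fell from 97.3 and 110 TPM to 38.2, 38.6, 39.3 and 36.1 in experiment 1 (−1.42, adjusted p = 3.91e-06) and from 61.9, 69.9, 64.9 and 66 to 41.7, 36.9, 45.5 and 49.5 in experiment 2 (−0.59, adjusted p = 3.06e-05). In T3M-4 experiment 2 it fell from 36.8, 38.2, 40.3 and 42 TPM to 24.3, 19.4, 21.2 and 23.6 (−0.81, adjusted p = 1.64e-05). In every one of these comparisons all knockout libraries were on 1 side of all controls, as they were in SUIT-2, where PROCR was at 104 to 146 TPM in sgRosa and 162 to 191 in sgKLF5 cells without a call (0.54, adjusted p = 0.0557). T3M-4 experiment 1 had 9.9 to 17.6 TPM of PROCR in sgKLF5 and 32.7 and 34.4 in sgRosa libraries, not called (−1.11, adjusted p = 0.0566) but called under median-of-ratios scaling (−0.87, adjusted p = 0.012), and CFPAC-1 gave −0.24 (adjusted p = 0.086).

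**Figure D3:**
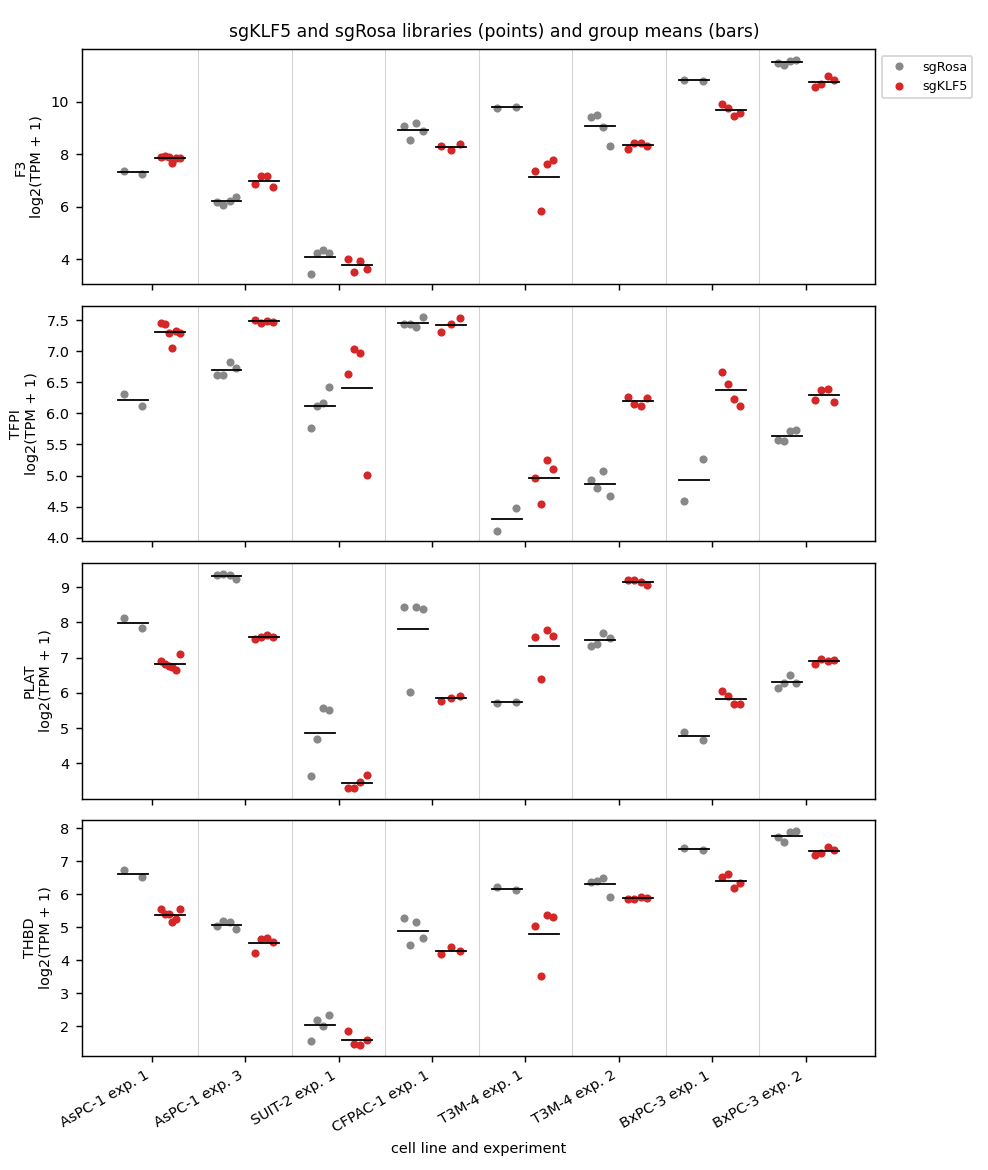
Log2(TPM + 1) of F3, TFPI, PLAT and THBD in each sgRosa and sgKLF5 library of the 8 KLF5 comparisons. Each point is 1 library and each bar a group mean. PLAT of sgKLF5 libraries lies below the controls in AsPC-1 and above them in T3M-4 and BxPC-3, whereas F3 goes the other way, with an overlap in T3M-4 experiment 2.

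PLAT, tissue-type plasminogen activator, had changes from −1.97 to 1.66, with the reverse sign of F3 in AsPC-1 and in both basal-like lines. In AsPC-1 it fell from 280 and 229 TPM of PLAT to 99.8 to 136 with a median of 110 in experiment 1 (log2 change −1.16, adjusted p = 4.54e-05), and from 645, 662, 646 and 600 to 184, 193, 200 and 193 in experiment 3 (−1.72, adjusted p = 5.37e-15). In T3M-4 experiment 2 PLAT rose from 160, 168, 207 and 187 TPM to 584, 587, 566 and 539 (1.66, adjusted p = 1.56e-11). In BxPC-3 it rose from 28.6 and 24.5 TPM to 65, 59.2, 50.6 and 50.3 in experiment 1 (1.05, adjusted p = 0.000335), and from 70.2, 76.4, 90.3 and 77.1 to 111, 124, 120 and 122 in experiment 2 (0.60, adjusted p = 0.000104). No libraries of these 5 comparisons overlapped between knockout and control.

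T3M-4 experiment 1 gave PLAT a rise of similar size with a weaker test. The sgRosa libraries had 51.6 and 53 TPM of PLAT and the sgKLF5 libraries 190, 82.5, 218 and 197 (log2 change 1.61, adjusted p = 0.0473), a call lost under a pseudocount of 0.1 (adjusted p = 0.057), with no filter (0.065), without either sgRosa library (0.318 and 0.339) and without sgKLF5 replicates 1, 3 or 4 (1.46 to 1.53). In CFPAC-1 sgRosa replicate 2 had 64.1 TPM of PLAT where the other 3 had 344, 347 and 330, and the sgKLF5 libraries had 54.1, 56.5 and 58.8 (−1.97, adjusted p = 0.00585). Without that control library, which resembled the knockout libraries across all genes, the change was −2.57. SUIT-2 went the way of AsPC-1 without a call (−1.42, adjusted p = 0.094), from 11.5, 24.9, 46.6 and 45.1 TPM to 8.89, 8.92, 10 and 11.7, and was called under median-of-ratios scaling (−1.65, adjusted p = 0.00767).

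The urokinase side moved less. PLAU was called in 3 of 8 comparisons with changes of −0.56 (CFPAC-1, adjusted p = 0.00422), −0.41 (BxPC-3 experiment 1, adjusted p = 0.0128) and 0.37 (T3M-4 experiment 2, adjusted p = 0.0361), the last lost under median-of-ratios scaling (0.25, adjusted p = 0.0514) and without sgRosa replicates 1, 2 or 4 or sgKLF5 replicates 1, 3 or 4 (0.26 to 0.40). The BxPC-3 call was lost without either sgRosa library (−0.41, adjusted p = 0.114 and 0.113). CFPAC-1 sgKLF5 libraries had 957, 844 and 920 TPM of PLAU, below sgRosa libraries at 1528, 1162, 1526 and 1167. SUIT-2, which had the most PLAU, showed 2922, 1974, 2350 and 2478 TPM against 752, 2127, 2197 and 2128 (0.54, adjusted p = 0.462), and the first control library was far below the others.

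PLAUR, its receptor, fell in AsPC-1, from 242 and 246 TPM of PLAUR to 168 to 184 with a median of 179 in experiment 1 (log2 change −0.45, adjusted p = 0.000213) and from 177, 189, 197 and 209 to 117, 143, 132 and 127 in experiment 3 (−0.57, adjusted p = 1.5e-05). In T3M-4 experiment 2 it rose from 133, 144, 132 and 123 TPM to 188, 173, 159 and 169 (0.37, adjusted p = 0.000453). In BxPC-3 it fell from 224 and 225 TPM to 114, 113, 111 and 114 in experiment 1 (−0.98, adjusted p = 4.26e-05), but rose in experiment 2 from 227, 231, 248 and 239 to 248, 288, 322 and 306 (0.29, adjusted p = 0.00811). The BxPC-3 control levels were alike in both experiments, unlike those of TFPI2.

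SERPINE2 was called higher only in T3M-4 and BxPC-3. T3M-4 experiment 2 had 37.9, 34.8, 41.3 and 36.9 TPM of SERPINE2 in sgRosa and 70.6, 72.6, 70.9 and 71.9 in sgKLF5 libraries (log2 change 0.91, adjusted p = 5.79e-09). BxPC-3 rose by 0.51 in experiment 1 (adjusted p = 0.0109; 0.44 and 0.59 with no call without sgRosa replicates 1 and 2) and by 0.45 in experiment 2 (adjusted p = 7.72e-05). In AsPC-1 experiment 3 it was called lower by a small amount (−0.14, adjusted p = 0.0359), a call lost without sgRosa replicates 1, 2 or 4 or sgKLF5 replicates 1 or 4 (−0.15 to −0.09). SUIT-2 controls had 139, 234, 299 and 307 TPM and knockout libraries 122, 109, 121 and 132, which was not called (−0.95, adjusted p = 0.0591).

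Markers of other cell types moved beside these results in BxPC-3, T3M-4 and AsPC-1. The 4 endothelial markers summed to 7.69 to 8.88 TPM in sgRosa and 18.7 to 28.5 in sgKLF5 libraries of BxPC-3 experiment 2, where only CDH5 reached 1 TPM, to 4.68 to 5.22 against 5.39 to 10.3 in BxPC-3 experiment 1, and to 3.28 to 5.58 against 7.69 to 10.9 in T3M-4 experiment 2. Summed fibroblast markers were at 17.9 to 20.5 TPM in sgRosa and 68.2 to 112 in sgKLF5 libraries of BxPC-3 experiment 1, with COL1A1 the highest, and at 103 to 115 against 59.7 to 73.8 in AsPC-1 experiment 1, where LUM was the only 1 of 4 to reach 1 TPM. Their part in the members' changes was not tested. In bulk RNA a change in the share of cells that express a gene and a change per cell cannot be told apart.

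Lines with repeated experiments allowed the KLF5 effect itself to be compared between experiments. In AsPC-1, 2 of 8 members differed (4.28% of all genes tested): PROCR, by −0.47 for experiment 1 minus experiment 3 (SE 0.08, adjusted p = 0.000681), and PLAT, by 0.57 (SE 0.11, adjusted p = 0.0018). F3 did not pass the threshold (−0.24, SE 0.13, adjusted p = 0.446). In T3M-4, 3 of 8 differed between experiments 1 and 2 (17.4% of all genes), F3 by −1.90 (SE 0.45, adjusted p = 0.0115), TFPI by −0.66 (SE 0.21, adjusted p = 0.0362) and PLAUR by −0.45 (SE 0.15, adjusted p = 0.0476). The median difference of all genes in that contrast was −0.33, and under median-of-ratios scaling TFPI (−0.24) and PLAUR (−0.02) were no longer called.

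BxPC-3 was the line whose experiments differed most for the members, 6 of 9 (16.7% of all genes). PLAUR differed by −1.28 (SE 0.12, adjusted p = 1.28e-07) and TFPI2 by −1.48 (SE 0.18, adjusted p = 2.38e-06), both with opposite signs in the 2 experiments. PROCR (−0.82), PLAU (−0.77), THBD (−0.48) and TFPI (0.79) were called as well, and F3 was not (−0.41, SE 0.19, adjusted p = 0.138). For sgRUVBL1 in AsPC-1, 2 of 8 differed between experiments 2 and 3 (18.2% of all genes), TFPI by −0.46 (adjusted p = 0.0193) and PLAUR by 0.42 (adjusted p = 0.00357). Of the 13 calls in these 4 contrasts 3 were positive and 10 negative, against 7 and 9 of 16 under median-of-ratios scaling.

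Loss of RUVBL1 or RUVBL2, which act as 1 complex, raised the urokinase receptor in 7 of 9 comparisons, and lowered PROCR where it was called. Against sgRosa, sgRUVBL1 gave 26 calls of 42 tested pairs, 13 higher and 13 lower, and sgRUVBL2 15 of 34, 9 higher and 6 lower. Large parts of the transcriptome were called too. For sgRUVBL1 the members called were 6 of 8 in AsPC-1 experiment 2 (55.8% of all genes tested), 6 of 8 in experiment 3 (51.9%), 4 of 9 in CFPAC-1 (43.8%), 8 of 8 in T3M-4 (60.5%) and 2 of 9 in BxPC-3 (16.0%). For sgRUVBL2 they were 7 of 8 in AsPC-1 (43.2%), 1 of 9 in CFPAC-1 (12.1%), 6 of 8 in T3M-4 (54.5%) and 1 of 9 in BxPC-3 (9.76%). In CFPAC-1 the sgRUVBL1 calls were 0 higher and 4 lower, against 3 higher (TFPI, PROCR and PLAUR) and 1 lower (F3) under median-of-ratios scaling. These comparisons share the sgRosa libraries of their line with each other and with KLF5. The members' median log2 change was 0.70 in T3M-4 after sgRUVBL1, beside 0.25 for all genes, and 0.56 beside 0.19 after sgRUVBL2.

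PLAUR was higher in all 9 of these comparisons and called in 7. In AsPC-1 experiment 2, sgRosa libraries had 187, 178, 174 and 179 TPM of PLAUR and sgRUVBL1 libraries 330, 304, 332 and 328 (log2 change 0.84, SE 0.05, adjusted p = 2.05e-09). In T3M-4, sgRosa libraries at 133, 144, 132 and 123 TPM compared with 312, 325 and 323 for sgRUVBL1 (1.26, SE 0.08, adjusted p = 1.34e-09) and 278, 286, 316 and 276 for sgRUVBL2 (1.11, SE 0.07, adjusted p = 1.99e-09). The groups were far apart in both lines. BxPC-3 libraries at 227, 231, 248 and 239 TPM compared with 355, 321, 319 and 327 for sgRUVBL1 (0.48, adjusted p = 0.000736) and 408, 333 and 319 for sgRUVBL2 (0.57, adjusted p = 0.00135). CFPAC-1 gave 0.30 and 0.36 without a call (adjusted p = 0.1 and 0.189), and its second sgRosa library was the lowest at 42 TPM of PLAUR.

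PLAU, the ligand of that receptor, rose most in T3M-4, where it was scarce. From 11, 10.5, 12.9 and 8.01 TPM of PLAU in sgRosa libraries it reached 36.6, 44.6 and 38 with sgRUVBL1 (log2 change 1.82, SE 0.14, adjusted p = 2.64e-08) and 27.4, 41.3, 40.5 and 36.5 with sgRUVBL2 (1.69, SE 0.13, adjusted p = 2.18e-08). Every knockout library was far above the highest control. In AsPC-1 experiment 2 PLAU went from 138, 134, 131 and 141 TPM to 196, 227, 207 and 233 with sgRUVBL1 (0.66, adjusted p = 2.71e-07), and in experiment 3 sgRUVBL2 gave 0.51 (adjusted p = 0.00437). No change was called in CFPAC-1 or BxPC-3, with values from −0.11 to 0.25.

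The plasminogen activator PLAT again split the lines. In AsPC-1 it fell with sgRUVBL1 from 169, 164, 176 and 178 TPM of PLAT to 105, 111, 110 and 104 in experiment 2 (log2 change −0.67, adjusted p = 8.62e-07), and from 645, 662, 646 and 600 to 338, 351, 377 and 370 in experiment 3 (−0.83, adjusted p = 4.41e-10). With sgRUVBL2 it fell to 456, 437, 465 and 470 (−0.48, adjusted p = 9.39e-07). In T3M-4 it rose from 160, 168, 207 and 187 TPM to 379, 430 and 377 with sgRUVBL1 (1.13, adjusted p = 7.5e-09) and to 347, 340, 345 and 376 with sgRUVBL2 (0.97, adjusted p = 1.42e-08). All knockout libraries lay on 1 side of the controls, in the same direction as after KLF5 knockout in each line. BxPC-3 was called higher for sgRUVBL1 (0.56, adjusted p = 0.000864) and not for sgRUVBL2 (0.17, adjusted p = 0.304).

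Tissue factor was called lower in 3 and higher in 1 of 5 comparisons after RUVBL1 loss, and lower in 2 of 4 after RUVBL2 loss. AsPC-1 sgRosa libraries of experiment 2 had 136, 127, 142 and 142 TPM of F3 and sgRUVBL1 libraries 98.3, 121, 101 and 112 (log2 change −0.34, adjusted p = 0.000929). In experiment 3 the sgRosa libraries, at 65.5 to 82.4 TPM, stood above sgRUVBL1 libraries at 50.3, 53.5, 60.6 and 60.8 (−0.38, adjusted p = 0.00251) and overlapped sgRUVBL2 libraries at 61.9, 57.7, 66.8 and 60.4 (−0.24, adjusted p = 0.0415). The sgRUVBL2 call was lost without sgRosa replicates 1, 3 or 4 or sgRUVBL2 replicates 1, 2 or 4 (−0.25 to −0.19). In experiment 3 F3 thus fell with RUVBL1 and rose with KLF5 knockout.

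CFPAC-1 held 332, 305, 367 and 311 TPM of F3 with sgRUVBL1 (log2 change −0.56, adjusted p = 0.000601) and 296 and 312 with sgRUVBL2 (−0.67, adjusted p = 0.00513; −0.63 and no call without its replicate 1), all below the sgRosa libraries at 373 to 574. In T3M-4 F3 was called higher with sgRUVBL1 (0.48, adjusted p = 0.0325), but its libraries at 717, 827 and 704 TPM overlapped sgRosa libraries at 318 to 725, and the call was lost under median-of-ratios scaling (0.19, adjusted p = 0.303), without sgRosa replicate 4 (0.23, adjusted p = 0.0579) and without sgRosa replicate 3 or sgRUVBL1 replicates 1 or 2 (0.41 to 0.51). With sgRUVBL2 it was not called there (0.29, adjusted p = 0.153), nor in BxPC-3 for either knockout (−0.22 and −0.12).

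**Figure D4:**
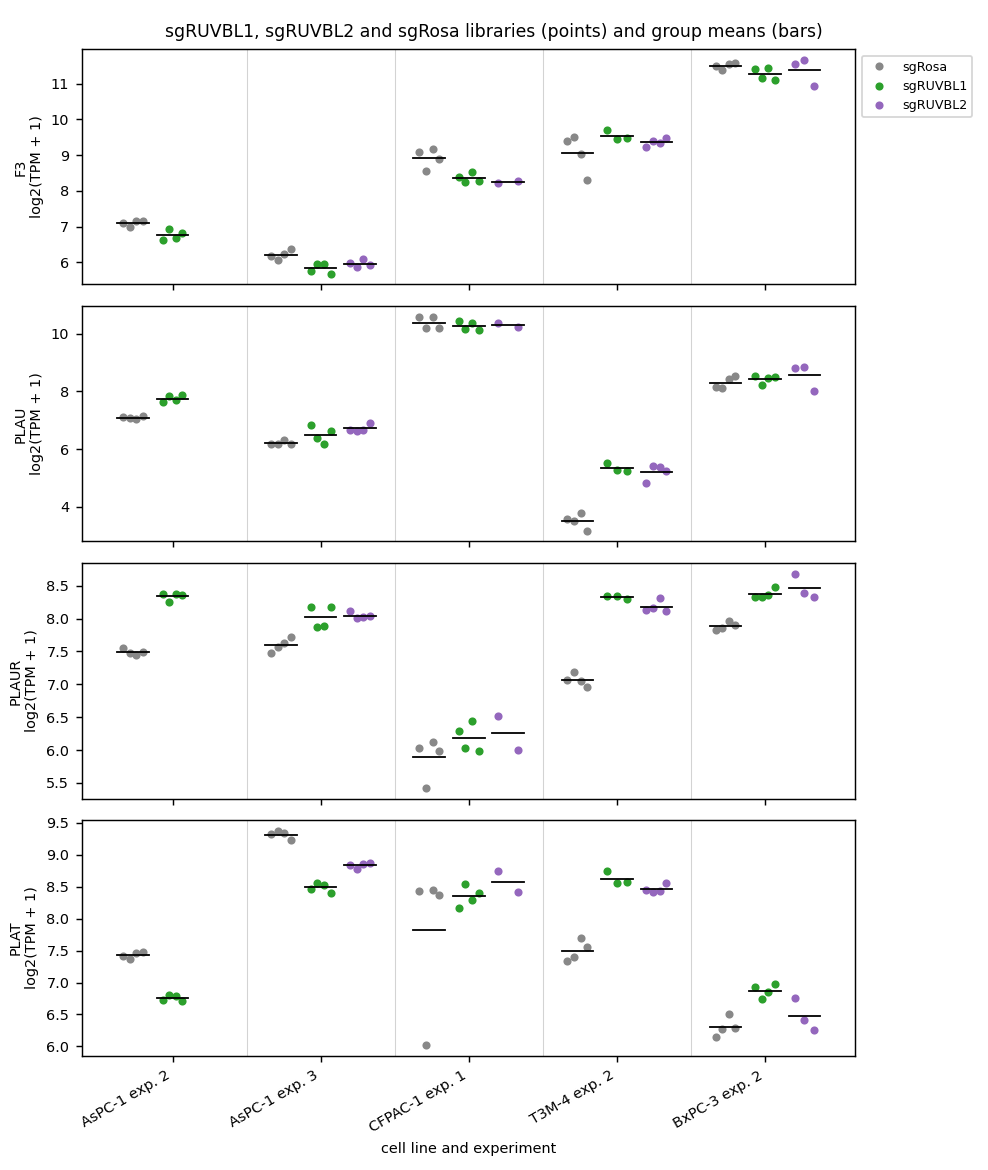
Log2(TPM + 1) of F3, PLAU, PLAUR and PLAT in each sgRosa, sgRUVBL1 and sgRUVBL2 library by line and experiment. Each point is 1 library and each bar a group mean. PLAUR of knockout libraries lies above the controls in every line but CFPAC-1, PLAU is higher most clearly in T3M-4, and F3 of knockout libraries lies below the controls in CFPAC-1.

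PROCR, the protein C receptor, was lower with sgRUVBL1 in AsPC-1 (log2 changes −0.43, adjusted p = 2.79e-06, and −0.52, adjusted p = 1.1e-06) and in T3M-4 (−1.06, adjusted p = 1.13e-06), and with sgRUVBL2 in AsPC-1 (−0.31, adjusted p = 0.000305) and T3M-4 (−0.86, adjusted p = 5.04e-06). T3M-4 sgRosa libraries at 36.8, 38.2, 40.3 and 42 TPM of PROCR compared with 18.8, 14.8 and 22 for sgRUVBL1 and 22.9, 18.2, 20.2 and 24.3 for sgRUVBL2. The sgKLF5 libraries of that experiment had 19.4 to 24.3 TPM. In CFPAC-1 and BxPC-3 PROCR was not called, with values from −0.19 to 0.12, but median-of-ratios scaling gave a higher call for sgRUVBL1 in CFPAC-1 (0.26, adjusted p = 0.027).

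TFPI was higher in T3M-4 (0.92, adjusted p = 6.72e-07, and 0.84, adjusted p = 7.31e-07), where sgRosa libraries at 24.4 to 32.5 TPM of TFPI compared with 49.7, 61.5 and 52.3 for sgRUVBL1 and 52.7, 57.5, 47.2 and 48.7 for sgRUVBL2. It was also higher in AsPC-1 experiment 3 (0.39, adjusted p = 0.00239, lost under median-of-ratios scaling at 0.21, and 0.61, adjusted p = 8.35e-05). In AsPC-1 experiment 2 it was not called (−0.07, adjusted p = 0.512). THBD was higher in AsPC-1 experiment 3 with sgRUVBL1 (0.60, adjusted p = 0.00125) and sgRUVBL2 (0.69, adjusted p = 0.00052), from 30.1 to 35.2 TPM in sgRosa to 38.2 to 63 and 49.5 to 56.8. In the same experiment KLF5 knockout lowered it. In T3M-4 THBD was called higher with sgRUVBL1 (0.41, adjusted p = 0.00378; 0.12 and no call after median-of-ratios scaling), and in CFPAC-1 lower (−0.56, adjusted p = 0.00573; −0.35 and no call after scaling). SERPINE2 was called lower in AsPC-1 experiment 2 (−0.10), CFPAC-1 (−0.33) and T3M-4 (−0.30 and −0.22), the first 2 not under median-of-ratios scaling and the first also not without sgRosa replicates 3 or 4 or sgRUVBL1 replicates 1, 3 or 4 (−0.10 to −0.09), and TFPI2 in CFPAC-1 with sgRUVBL1 (−0.37, adjusted p = 0.000947; −0.15 and no call after scaling). Beside these values, the endothelial markers of T3M-4 experiment 2 summed to 3.28 to 5.58 TPM in sgRosa, 7.66 to 8.82 in sgRUVBL1 and 8 to 10.8 in sgRUVBL2 libraries, with PECAM1 the highest, and the fibroblast markers to 22.5 to 33.4, 38.8 to 46.3 and 41.6 to 46.7 TPM. Their part was not tested.

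Guides against CDK1 and RPA3, genes that all of these lines need to divide, called 15 of 85 tested pairs, 8 higher and 7 lower (8 and 11 of 19 under median-of-ratios scaling). THBD, PROCR and PLAU were called in 0 of 10 comparisons each by limma. For CDK1, 3 of 8 were called in AsPC-1 (16.7% of all genes), 2 of 8 in T3M-4 (16.8%) and 4 of 9 in BxPC-3 (5.82%). For RPA3 they were 1 of 9 in CFPAC-1 (11.6%), 3 of 8 in T3M-4 experiment 2 (24.6%) and 2 of 9 in BxPC-3 experiment 2 (20.8%), 0 of 8 in AsPC-1 (0.654%; 3 members at an unadjusted p under 0.05) and 0 of 9 in BxPC-3 experiment 1 (0.307%; 1 member). In CFPAC-1 after sgCDK1 and in T3M-4 experiment 1 after sgRpa3 limma called no gene at all (0% of all genes), with 1477 and 189 genes, and 2 and 0 members, at an unadjusted p under 0.05.

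PLAT was the member that moved most often after these knockouts, higher in 4 and lower in 1 comparison. In BxPC-3, sgCDK1 libraries averaged 200 TPM of PLAT against 78.5 in sgRosa (log2 change 1.34, adjusted p = 2.24e-06) and sgRpa3 libraries 132 (0.75, adjusted p = 0.000384), both more than the rise with sgKLF5 in that experiment (0.60). T3M-4 gave 0.62 (CDK1, adjusted p = 0.000375) and 0.52 (RPA3, adjusted p = 0.000596), less than with sgKLF5 (1.66), and AsPC-1 −0.22 (CDK1, adjusted p = 0.0104, lost without either sgCDK1 library at −0.24 and −0.21). These comparisons share their sgRosa libraries with those of KLF5. In the sgCDK1 libraries of BxPC-3 the endothelial markers summed to 43.6 to 49.3 TPM, mostly CDH5.

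TFPI went in different directions with sgCDK1, lower in AsPC-1 (−0.62, adjusted p = 0.00122) and BxPC-3 (−0.70, adjusted p = 0.00162) and higher in T3M-4 (0.57, adjusted p = 0.0025). These calls were lost without sgCDK1 replicate 1 (AsPC-1, −0.46) or 2 (BxPC-3, −0.61, and T3M-4, 0.51). F3 was lower in BxPC-3 with sgCDK1, at 1905 and 1909 TPM against 2674 to 3060 (−0.60, adjusted p = 0.0221), and in T3M-4 experiment 2 with sgRpa3, at 305 and 331 TPM against 318 to 725 (−0.75, adjusted p = 0.0158). Both F3 calls were lost without either knockout library (−0.60 and −0.60 for BxPC-3, −0.69 and −0.81 for T3M-4), the BxPC-3 call also without sgRosa replicates 3 or 4 (−0.59 and −0.58), and the T3M-4 groups overlapped. SERPINE2 was higher after sgCDK1 in AsPC-1 (0.24) and BxPC-3 (0.52) and after sgRpa3 in CFPAC-1 (0.45, adjusted p = 0.0117), the first and last not without either knockout library (0.24 and 0.24, 0.45 and 0.44). PLAUR was lower after sgRpa3 in T3M-4 (−0.47, adjusted p = 0.00107), and TFPI2 after sgRpa3 in BxPC-3 (−0.86, adjusted p = 0.000743).

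KLF5, RUVBL1 and RUVBL2 knockouts were also compared with the CDK1 and RPA3 knockouts of the same experiment in place of sgRosa. This set them beside guides against genes that dividing cells need. In the AsPC-1 and CFPAC-1 libraries used, however, neither CDK1 nor RPA3 transcript was called lower than in sgRosa. These comparisons gave 74 calls of 102 tested pairs, 37 in each direction (45 higher and 33 lower of 78 under median-of-ratios scaling). For KLF5, RUVBL1 and RUVBL2 in turn, the members called were 8, 6 and 6 of 8 in AsPC-1 (34.7%, 51.2% and 42.1% of all genes), 6, 6 and 3 of 9 in CFPAC-1 (43.7%, 55.4% and 23.8%), 5, 8 and 8 of 8 in T3M-4 (28.4%, 41.8% and 38.2%) and 8, 4 and 6 of 9 in BxPC-3 (46.8%, 20.4% and 20.7%). TFPI was called in 10 of 12 such comparisons, all higher, with log2 changes from 0.14 to 1.08 over the 12. The 3 comparisons of an experiment share their sgCDK1 and sgRpa3 libraries, and TFPI was itself lower after sgCDK1 in AsPC-1 (−0.62) and BxPC-3 (−0.70). PLAUR was called higher in 8 and lower in 2 (−0.70 to 1.56), SERPINE2 lower in 7 and higher in 1 (−0.49 to 0.89), and PLAT lower in 7 and higher in 3 (−2.67 to 1.09). F3 was higher in 3 and lower in 6 (−0.77 to 0.87), PROCR higher in 2 and lower in 6 (−0.91 to 0.64), THBD 4 and 4 (−0.77 to 0.65), PLAU 3 and 4 (−0.88 to 1.41), and TFPI2 3 and 1 of 6 tested (−0.35 to 1.28).

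SERPINB5 encodes maspin, a relative of the serpins that inhibit plasminogen activators, and its own transcript fell from a mean of 182 to 71.3 TPM (log2 change −1.35) in AsPC-1. Limma called 0 of 8 tested members there, with 3 at an unadjusted p under 0.05, where 0.0343% of all genes were called, and the members' log2 changes lay between −0.16 and 0. F3 stood at 118, 134, 140 and 137 TPM beside 136, 127, 142 and 142 in sgRosa (−0.05, SE 0.07), so a change larger than this spread was not detected.

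Knockout of CHD4, an ATPase of the NuRD chromatin remodeller, gave the largest log2 change of PLAT among the 39 comparisons with sgRosa or DMSO, and moved PLAU the other way. In AsPC-1, 7 of 8 members were called, 5 higher and 2 lower, where 50.0% of all genes were called. PLAT fell from 347, 362, 349 and 354 TPM in sgRosa to 41.9, 33.9, 45.8 and 53.8 in sgCHD4 libraries (log2 change −3.0, SE 0.11, adjusted p = 1.72e-09). PLAU rose from 86.5, 93.3, 94 and 84.4 TPM to 349, 327, 280 and 288 (1.78, SE 0.07, adjusted p = 3.59e-09). Their order turned round, with PLAT above PLAU in every control library and PLAU above PLAT in every knockout library.

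Tissue factor rose with CHD4 loss too, from 94.6, 106, 96.3 and 93.7 TPM of F3 to 200, 176, 185 and 196 (log2 change 0.95, SE 0.05, adjusted p = 8.29e-08). PROCR fell from 207, 210, 201 and 206 TPM to 137, 129, 139 and 138 (−0.60, adjusted p = 2.44e-07) and SERPINE2 rose from 1230 to 1335 TPM to 1711 to 1817 (0.45, adjusted p = 1.05e-06). All 3 were without overlap. THBD (0.25, adjusted p = 0.0123) and PLAUR (0.13, adjusted p = 0.031) were called higher with overlapping libraries, the latter lost under median-of-ratios scaling (adjusted p = 0.0577) and without sgRosa replicates 2, 3 or 4 or sgCHD4 replicates 1 or 4 (0.12 to 0.13). TFPI was not called (−0.01, SE 0.05). Beside KLF5 knockout in AsPC-1, CHD4 knockout thus shared the signs of F3 and PLAT and not those of PROCR, THBD, PLAUR and SERPINE2. The experiments differ, and the difference between the knockouts was not tested.

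Inhibition of the RUVBL1/2 ATPase with CB-6644 lowered tissue factor in empty-vector cells of both PDAC lines and left it uncalled in cells with either resistant variant. In empty-vector cells, 11 of 16 pairs were called, 3 higher and 8 lower: 7 of 8 in AsPC-1 (64.4% of all genes) and 4 of 8 in T3M-4 (34.3%). In cells with RUVBL1_A62T, 3 of 8 were called in AsPC-1 (12.7%) and 1 of 8 in T3M-4 (50.0%), and with RUVBL2_dF109 3 of 8 in AsPC-1 (33.4%) and 1 of 8 in T3M-4 (37.6%). These 8 calls were 3 higher and 5 lower, but 11 calls, all lower, under median-of-ratios scaling, since the median log2 change of all genes was 0.10 to 0.33 in variant cells. The fit used the DMSO libraries of the 3 constructs together, as each construct has only 1.

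In AsPC-1 empty-vector cells, CB-6644 libraries had 30.5, 31.6 and 37.5 TPM of F3 against DMSO libraries at 83.7 (empty vector), 97.2 (RUVBL1_A62T) and 68.4 (RUVBL2_dF109), a log2 change of −1.29 (SE 0.12, adjusted p = 2.03e-06). Against the empty-vector DMSO library alone it was −1.31. CB-6644 libraries of variant cells had 109, 93.3 and 95.2 TPM of F3 (RUVBL1_A62T, 0.26, adjusted p = 0.142) and 79.1, 81 and 69.7 (RUVBL2_dF109, −0.10, adjusted p = 0.505). Under the drug, empty-vector cells stood below both, by −1.55 (adjusted p = 1.22e-06) and −1.19 (adjusted p = 1.1e-05), and by −1.34 and −1.47 when each construct was set against its own DMSO library.

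PLAT followed the same course in AsPC-1. It fell to 44.9, 47.5 and 45.7 TPM in empty-vector cells from 135, 159 and 169 TPM of PLAT in the 3 DMSO libraries (log2 change −1.72, SE 0.07, adjusted p = 5.57e-09). In contrast to F3, PLAT also fell in variant cells, to 110, 105 and 111 TPM (RUVBL1_A62T, −0.50, adjusted p = 0.00479) and 115, 117 and 119 (RUVBL2_dF109, −0.39, adjusted p = 0.0027). The difference between empty-vector and variant cells under the drug was −1.22 (adjusted p = 1.54e-07) and −1.33 (adjusted p = 1.1e-07), and −0.99 and −1.0 against each construct's own DMSO library.

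Among the other AsPC-1 members, PLAUR rose in empty-vector cells to 355, 370 and 398 TPM from 277, 258 and 245 (log2 change 0.52, adjusted p = 7.89e-06), with smaller calls in variant cells (0.21 and 0.19) that were lost under median-of-ratios scaling (0.07 and −0.01) and without single CB-6644 or DMSO libraries of both variants (0.15 to 0.22). PROCR fell in all 3 constructs, from 340, 289 and 310 TPM to 224 to 242 (empty vector, −0.41, adjusted p = 3.98e-05), 245 to 249 (RUVBL1_A62T, −0.34, adjusted p = 0.00698) and 253 to 258 (RUVBL2_dF109, −0.29, adjusted p = 0.00351). For PROCR the constructs were not called different under the drug (−0.08 and −0.12), with SE 0.05 each. SERPINE2 was called lower in empty-vector cells alone (−0.46, adjusted p = 1.8e-06), from 1290 to 1374 TPM to 986, 937 and 968. PLAU was called higher (0.50, adjusted p = 0.00529), but not against its own DMSO library (0.23, adjusted p = 0.184), and the TFPI call of 0.20 (adjusted p = 0.00511) became −0.06 under median-of-ratios scaling.

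In T3M-4 the single DMSO library of empty-vector cells stood apart from those of the variants. It had 165 TPM of F3 against 572 and 355, 11.3 of THBD against 47.5 and 34, 5.81 of PLAU against 24.8 and 14.9, and 51.5 of PLAUR against 209 and 157. CB-6644 libraries of empty-vector cells had 90.4, 67.1 and 54.4 TPM of F3, a log2 change of −2.20 from the 3 DMSO libraries (SE 0.34, adjusted p = 0.000593) and −1.24 from their own (adjusted p = 0.00232). F3 was thus below every DMSO library of the line. Variant cells under the drug had 471, 512 and 453 TPM of F3 (RUVBL1_A62T, 0.57, adjusted p = 0.168) and 353, 352 and 364 (RUVBL2_dF109, 0.14, adjusted p = 0.741). The log2 difference of empty-vector from variant cells under the drug, −2.77 and −2.35, was −0.98 (adjusted p = 0.117) and −1.24 (adjusted p = 0.0817) when each construct was set against its own DMSO library, and no longer called.

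Other T3M-4 members depended on that library even more. The fall of THBD in empty-vector cells (log2 change −1.34, adjusted p = 0.0163) was −0.18 (adjusted p = 0.456) against the empty-vector DMSO library, which at 11.3 TPM of THBD lay among CB-6644 libraries at 11.7, 10.3 and 7.93. It was −1.17 and not called without the RUVBL2_dF109 DMSO library. TFPI likewise went from −0.58 (adjusted p = 0.0174; −0.55 and no call without empty-vector CB-6644 replicate 2) to −0.19 (adjusted p = 0.235). PLAU, PLAUR and SERPINE2, uncalled against the pooled DMSO libraries (−0.48, −0.26 and −0.17), were called higher against their own (0.57, 0.94 and 0.44), where the single DMSO library is assumed to vary like the libraries of the other groups. PLAT alone gave −0.26 both ways (adjusted p = 0.00975 against the pooled libraries). The calls in variant cells of T3M-4, PLAU with RUVBL1_A62T (0.94, adjusted p = 0.0433) and PROCR with RUVBL2_dF109 (−0.51, adjusted p = 0.0471), were lost without the empty-vector DMSO library (0.41 and −0.30) and without most other single libraries. Whether construct or culture set the DMSO levels cannot be told apart with 1 library each.

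Over both lines, 20 of 32 pairs were called between empty-vector and variant cells in CB-6644, 3 higher and 17 lower (6 and 16 of 22 under median-of-ratios scaling). They were 4 of 8 for RUVBL1_A62T in AsPC-1 (51.1% of all genes), 5 of 8 for RUVBL2_dF109 in AsPC-1 (47.2%), 6 of 8 for RUVBL1_A62T in T3M-4 (50.6%) and 5 of 8 for RUVBL2_dF109 in T3M-4 (34.6%). With each construct set against its own DMSO library 9 were called. Under that setting F3, PLAT and SERPINE2 in AsPC-1 kept their calls against both variants.

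**Figure D5:**
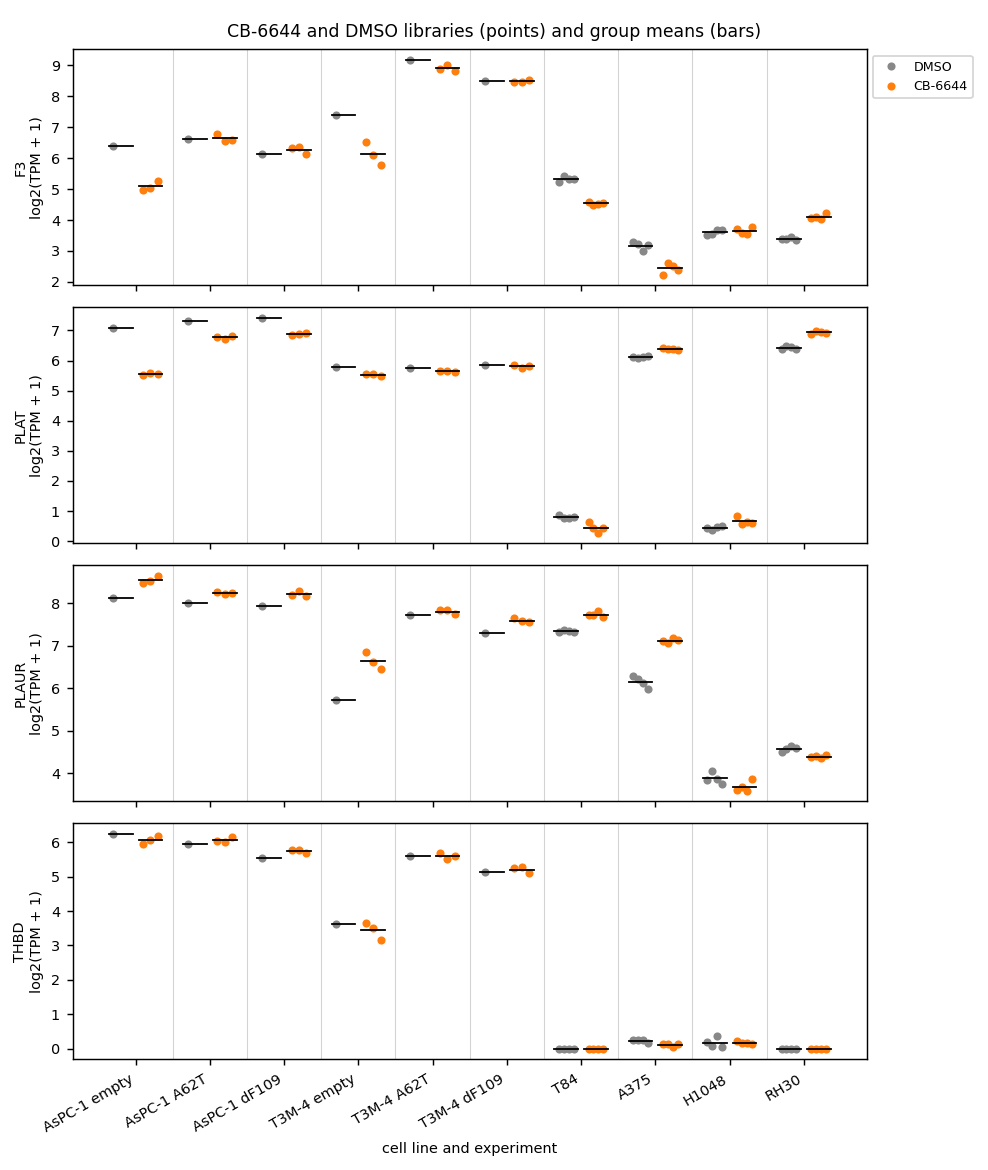
Log2(TPM + 1) of F3, PLAT, PLAUR and THBD in DMSO and CB-6644 libraries of AsPC-1 and T3M-4 cells by construct and of the 4 non-pancreatic lines. Each point is 1 library and each bar a group mean. F3 of empty-vector CB-6644 libraries, at 30.5 to 37.5 TPM in AsPC-1 and 54.4 to 90.4 in T3M-4, lies below all DMSO libraries of the line, and the T3M-4 empty-vector DMSO point lies below those of the variants for F3, PLAUR and THBD.

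Outside the pancreas the drug moved tissue factor down, up or not at all. The members called were 6 of 6 tested in T84 (71.4% of all genes), 6 of 7 in A375 (81.1%), 3 of 5 in H1048 (77.9%) and 7 of 7 in RH30 (77.7%), in all 22 of 25, 14 higher and 8 lower. These shares are near those of all genes. F3 fell in T84, from 36.7, 42.2, 39.1 and 38.9 TPM to 23, 21.5, 22.1 and 22.6 (log2 change −0.78, SE 0.06, adjusted p = 6.56e-09), and in A375, from 8.7, 8.33, 6.95 and 8.09 TPM to 3.7, 5.1, 4.74 and 4.26 (−0.73, SE 0.09, adjusted p = 1.53e-05). It rose in RH30, from 9.55, 9.45, 9.95 and 9.23 TPM to 15.9, 16, 15.2 and 17.7 (0.70, SE 0.05, adjusted p = 9.09e-08). The groups were apart in all 3 lines, while in H1048 F3 stayed between 10.5 and 12.8 TPM (0.05, SE 0.07, adjusted p = 0.513).

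A test of whether the drug effect differed among the 4 lines called 8 of 8 tested members (86.2% of all genes), with F = 107 for F3 (adjusted p = 1.9e-14), 86 for PLAUR (adjusted p = 2.26e-13), 84.3 for TFPI2 (adjusted p = 2.88e-13) and 57.7 for SERPINE2 (adjusted p = 1.94e-11). TFPI had the smallest (F = 4.09, adjusted p = 0.0189). PLAUR rose in A375, from 77.7, 73.6, 68.7 and 62.6 TPM to 137, 132, 145 and 139 (0.96, SE 0.06, adjusted p = 3.3e-08), and rose in T84 from 159 to 165 TPM of PLAUR to 204 to 224 (0.39, adjusted p = 3.33e-07). It was called lower in RH30 (−0.19, adjusted p = 0.00108) and H1048 (−0.20, adjusted p = 0.0322, lost without DMSO replicate 2 or CB-6644 replicates 1, 2 or 3 at −0.20 to −0.15). TFPI2, which only A375 expressed among these lines, rose from 15.9, 19.4, 16.9 and 18.2 TPM to 36.2, 35.8, 35.3 and 35.2 (0.98, SE 0.05, adjusted p = 1.72e-08).

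PROCR fell in all 3 lines where it was tested, most in T84, from 51, 49.3, 49.2 and 49.6 TPM to 30.1, 27.1, 27.8 and 25.3 (log2 change −0.83, adjusted p = 3.7e-09), and less in RH30 (−0.35, adjusted p = 0.0054) and A375 (−0.12, adjusted p = 0.0232, lost without DMSO replicate 4 or CB-6644 replicates 1, 2 or 3 at −0.11 to −0.10). PLAU rose in RH30 from 144, 143, 139 and 136 TPM to 221, 218, 215 and 220 (0.63, SE 0.02, adjusted p = 3.14e-10) and in H1048 from 28.3 to 31.2 TPM to 36.6 to 42.1 (0.39, adjusted p = 2.18e-05). The T84 call for PLAU (0.15) turned to −0.04 under median-of-ratios scaling. PLAT rose in RH30 from 82.4, 89.1, 86.2 and 83.1 TPM to 118, 126, 123 and 119 (0.51, adjusted p = 2.03e-08) and was called higher in A375 (0.26, adjusted p = 2.47e-06; 0.04 and no call after scaling).

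SERPINE2 fell in A375, the line with most of it, from 2698, 2661, 3115 and 3142 TPM to 1955, 2001, 1885 and 1994 (log2 change −0.56, adjusted p = 1.47e-06), and rose in RH30 (0.44, adjusted p = 0.00021), H1048 (0.37, adjusted p = 6.83e-05) and T84 (0.27, adjusted p = 7.36e-05; 0.09 and no call after scaling). TFPI rose in T84 (0.67, adjusted p = 4.48e-05), from 1.77 to 2.75 TPM to 3.74 to 4.33, and in RH30 (0.35, adjusted p = 0.0021; 0.19 and no call after scaling). PECAM1 in RH30 was at 40.3 to 43.2 TPM in DMSO and 32.5 to 34.1 in CB-6644 libraries, and its part in these values was not tested. THBD was not tested in any of the 4 lines, being listed at 0 in T84 and RH30 and at most 0.303 TPM in A375 and H1048.

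Other genes of the pathway were followed as lists over the 39 comparisons of a knockout or CB-6644 group with its own sgRosa or DMSO libraries. Of 16 coagulation factor genes 8 were never tested, and 153 pairs gave 42 higher and 15 lower calls, or 34 and 17 under median-of-ratios scaling. Over the comparisons of these pairs, 19.7% of all genes were called higher and 10.7% lower on average, or 13.7% and 16.2% after scaling, with the scaling of these lists chosen after seeing the data, and the lists were not tested against such shares. Factor V (F5), the cofactor of factor X, was higher in 14 and lower in 0 of 39 comparisons, most in AsPC-1 experiment 1 after KLF5 knockout, from a mean of 1.44 to 13.6 TPM (log2 change 2.57, adjusted p = 1.06e-05). F8, the factor VIII gene, was higher in 13 of 38 and lower in 0, F10 higher in 7 of 13 and lower in 0, and VWF, the carrier of factor VIII, higher in 5 and lower in 1 of 13. F12, which starts contact activation, was lower in 13 and higher in 1 of 39, with T3M-4 falling from 7.85 to 3.4 TPM with sgRUVBL2 (−1.01, adjusted p = 2.59e-06).

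The 7 anticoagulant genes gave 13 higher and 12 lower calls in 73 tested pairs, where 20.7% of all genes were called higher and 12.2% lower. After scaling the calls were 12 and 13, where the shares of all genes were 14.9% and 17.4%. PROC, the protein C gene, was higher in 2 and lower in 5 comparisons, PROS1, its cofactor, in 4 and 4, SERPINA5 in 3 and 2 and SERPINA10 in 3 and 0. The 4 protease-activated receptor genes report thrombin or trypsin-like activity to the cell. Of their 88 tested pairs 35 were higher and 9 lower, beside 21.1% and 11.1% of all genes. After scaling 28 were higher and 8 lower, beside 14.6% and 17.2% of all genes. F2RL1 was higher in 16 and lower in 1, from 36.5 to 80.1 TPM with sgRUVBL1 in T3M-4 (log2 change 1.11, adjusted p = 1.99e-08) and from 5.74 to 2.29 with CB-6644 in A375 (−1.03, adjusted p = 3.4e-07). F2R, the main thrombin receptor, was higher in 12 and lower in 7, after KLF5 knockout in BxPC-3 experiment 1 from 3.67 to 13.2 TPM (1.57, adjusted p = 0.000661), and F2RL3 higher in 7 and lower in 0 of 11.

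The 11 further plasminogen genes gave 40 higher and 69 lower calls in 285 tested pairs, beside 19.6% and 10.5% of all genes. After scaling the calls were 31 and 80, beside 13.8% and 16.2% of all genes. Of these 11 genes 3, PLG, CPB2 and VTN, were never tested. SERPINB2, which inhibits urokinase, was lower in 8 and higher in 2, and fell after KLF5 knockout in T3M-4 from 918 to 124 TPM (log2 change −3.20, adjusted p = 0.0403) and from 357 to 125 (−1.50, adjusted p = 3.84e-10). In BxPC-3 it fell from 953 to 152 TPM (−2.65, adjusted p = 1.27e-06) and from 1340 to 787 (−0.78, adjusted p = 6.15e-05), with experiment 1 first in each line.

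Neuroserpin (SERPINI1), an inhibitor of tissue-type activator, was higher in 18 of 37 comparisons and lower in 0, with CB-6644 in A375 from 1.38 to 14.7 TPM (log2 change 2.73, adjusted p = 8.81e-10), in T84 from 0.737 to 5.76 (1.96, adjusted p = 1.4e-10) and in empty-vector AsPC-1 from 1.69 to 9.51 (1.96, adjusted p = 1.39e-07). Among plasminogen receptors, ANXA2 was lower in 15 and higher in 2 comparisons, its partner S100A10 lower in 13 and higher in 2, ENO1 lower in 17 and higher in 5, and PLGRKT lower in 7 and higher in 3. LRP1, which clears complexes of activators and inhibitors, was lower in 7 and higher in 5, with BxPC-3 falling from 33.9 to 10.1 TPM in experiment 2 of KLF5 knockout (−1.64, adjusted p = 0.000438). SERPINF2, the plasmin inhibitor, was higher in 3 and lower in 2.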

How the data were processed

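Poly-A RNA of 183 libraries was sequenced as 76-base single-end reads from an unstranded kit, and the authors pseudo-aligned them with kallisto to hg38, removed low-abundance transcripts at a limit not given in the sources used here, and deposited gene-level TPM made with tximport in 8 tables of 19875 genes. The authors tested counts with DESeq2. The deposited values are TPM, which keep no read depth, so no count test, interval or detection floor was possible, and precision rests on the spread between libraries. Isoforms cannot be told apart at gene level, and TPM shift when a few genes take up more of a library.

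Groups came from the sample titles and characteristics. A limma model (version 3.58.1, R 4.3.3) per line and experiment took log2(TPM + 1) of all its libraries, with a trend in the prior variance. Genes whose mean over those libraries was under 1 TPM were left out. P-values are two-sided and adjusted by Benjamini-Hochberg over all genes tested, with a threshold of 0.05. There were 60 comparisons, 39 of them with sgRosa or DMSO libraries of the same line and experiment. DMSO libraries of the 3 constructs were pooled. Differences between experiments and among lines were tested as interaction terms.

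Per-library values are given for F3 and for members called in at least 4 of 8 KLF5 or 5 of 10 CB-6644 comparisons, and pathway genes called in at least 3 comparisons are named. A gene of the plasminogen list is not reported here and is left out of its counts. Members and lists were chosen with earlier results of these data known. Alternatives were a pseudocount of 0.1, no filter, median-of-ratios scaling, only the compared groups, the replicate number as a block, each construct's own DMSO library and leaving out each library. The scripts were tested on simulated data made from these libraries. Sequences are RefSeq's (GRCh38.p14).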

Additional observations from a re-analysis of the deposited data

Results flagged for a closer look

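Single libraries stood far from the rest of their group in 14 of 234 sets of a member and a group of 4 to 6 libraries, where chance flags about 1 in 20. In AsPC-1 these were TFPI in sgRosa replicate 4 of the CHD4 experiment (80.4 TPM, the lowest), TFPI2 in sgKLF5 replicate 6 of experiment 1 (10.5, the highest), PLAU in sgRUVBL2 replicate 4 (120, the highest) and sgRosa replicate 3 (79.7, the highest) of experiment 3, PLAUR in sgCHD4 replicate 3 (151, the lowest) and sgRUVBL1 replicate 2 of experiment 2 (304, the lowest), and SERPINE2 in sgRUVBL2 replicate 4 of experiment 3 (1550, the highest). In BxPC-3 they were PROCR in sgRUVBL1 replicate 1 (66.1, the highest), and PLAU in sgKLF5 replicate 3 of experiment 1 (217, the lowest) and sgRUVBL1 replicate 3 of experiment 2 (295, the lowest). The others were PROCR in T3M-4 sgKLF5 replicate 2 of experiment 1 (9.9 TPM, the lowest), PLAT in CFPAC-1 sgRosa replicate 2 (64.1, the lowest), PLAU in SUIT-2 sgRosa replicate 1 (752, the lowest) and SERPINE2 in T84 CB-6644 replicate 1 (84.3, the highest).

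The effect of CB-6644 differed among T84, A375, H1048 and RH30 for every member tested, with F statistics of 107 for F3, 86 for PLAUR, 84.3 for TFPI2, 57.7 for SERPINE2, 39.7 for PLAT, 19.6 for PROCR, 6.8 for PLAU and 4.09 for TFPI (limma). All libraries moved up in 1 line and down in another for F3 (log2 change 0.70 in RH30, −0.78 in T84), PLAUR (0.96 in A375, −0.19 in RH30) and SERPINE2 (0.44 in RH30, −0.56 in A375).

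Repeated experiments in 1 line differed in their knockout effect, by limma's interaction term. For KLF5 in AsPC-1, experiment 1 minus 3, the differences were −0.47 (PROCR) and 0.57 (PLAT). In T3M-4, experiment 1 minus 2, they were −1.9 (F3), −0.66 (TFPI) and −0.45 (PLAUR). In BxPC-3 they were 0.79 (TFPI), −1.48 (TFPI2), −0.48 (THBD), −0.82 (PROCR), −0.77 (PLAU) and −1.28 (PLAUR). For RUVBL1 in AsPC-1, experiment 2 minus 3, they were −0.46 (TFPI) and 0.42 (PLAUR).

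In further pairs every treated library lay above its controls in 1 line or experiment and below them in another. Apart from TFPI2, between experiments of BxPC-3, the difference was not tested. How many of all genes separated in this way was not counted, and groups of 2 libraries separate most easily. After KLF5 knockout these were F3 (log2 change 0.77 in AsPC-1 experiment 3, −2.63 in T3M-4 experiment 1), TFPI2 (0.93 and −0.56 in BxPC-3 experiments 2 and 1), PROCR (0.66 in AsPC-1 experiment 3, −1.42 in BxPC-3 experiment 1), PLAT (1.66 in T3M-4 experiment 2, −1.97 in CFPAC-1), PLAUR (0.37 in T3M-4 experiment 2, −0.98 in BxPC-3 experiment 1) and SERPINE2 (0.91 in T3M-4 experiment 2, −0.95 in SUIT-2, not called). PLAT did so after RUVBL1 knockout (1.13 in T3M-4, −0.83 in AsPC-1 experiment 3) and RUVBL2 knockout (0.97 in T3M-4, −0.48 in AsPC-1), and TFPI under CB-6644 in empty-vector cells (0.20 in AsPC-1, −0.58 in T3M-4). With sgCDK1 they were F3 (0.39 in CFPAC-1, not called, and −0.60 in BxPC-3), TFPI (0.57 in T3M-4, −0.70 in BxPC-3), PROCR (0.10 in AsPC-1, −0.22 in BxPC-3, neither called) and PLAT (1.34 in BxPC-3, −0.22 in AsPC-1). With sgRpa3 they were THBD (0.25 in BxPC-3 experiment 2, −0.43 in T3M-4 experiment 1, neither called), PLAUR (0.43 in CFPAC-1, not called, and −0.47 in T3M-4 experiment 2) and SERPINE2 (0.45 in CFPAC-1, −0.14 in AsPC-1, not called).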

How the results depend on the processing

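Of 256 called pairs of a member and a comparison, 254 kept direction and call under a pseudocount of 0.1, 245 with no filter on low values, 226 under median-of-ratios scaling, 188 of 214 with only the compared groups fitted, and 202 of 243 whichever library was left out. Scaling took away 27 calls and turned 3, TFPI with CB-6644 in empty-vector AsPC-1 (−0.06), PLAUR in RUVBL2_dF109 AsPC-1 (−0.01) and PLAU in T84 (−0.04). Members called in variant cells under CB-6644 numbered 8, but 3 with only the compared groups, 5 with each construct's own DMSO library and 7 to 15 with 1 library left out. Calls between empty-vector and variant cells went from 20 to 9 with own DMSO libraries, which turned PLAU against RUVBL2_dF109 in AsPC-1 (−0.12) and in T3M-4 (0.1), and PLAU (0.51), PLAUR (0.85) and SERPINE2 (0.52) against RUVBL1_A62T in T3M-4. The cause was not tested. With 1 library left out, calls ranged from 43 to 50 for KLF5, 25 to 27 for RUVBL1, 14 to 17 for RUVBL2, 12 to 18 for CDK1 and RPA3, 6 to 7 for CHD4, 10 to 14 for CB-6644 in empty-vector cells and 21 to 22 in the non-pancreatic lines; a group left with 1 library was taken to vary like the others.

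Same-numbered libraries of different groups did not deviate together (correlations −0.459 to 0.488), so the numbers do not pair them. With the replicate block, calls were 46 for KLF5, 26 for RUVBL1, 15 for RUVBL2, 15 for CDK1 and RPA3, 0 for SERPINB5, 6 for CHD4, 74 against CDK1 and RPA3, 27 between empty-vector and variant cells, 22 in the non-pancreatic lines, 8 among those lines and 15 between experiments. Depth is unknown, so the precision of low members rests on replicate spread alone.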
